A study of Chlamydomonas reinhardtii with 28 samples.

Results

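Laboratory strains of the green alga Chlamydomonas reinhardtii descend from the mating of a single pair of gametes. Along each chromosome a strain carries either of the parental sequences, named haplotype 1 and haplotype 2, in long blocks. Some blocks are the same in every strain, and others are mixed, with haplotype 2 in some strains and haplotype 1 in the rest. A gene in a mixed block therefore comes in 2 versions, which can differ in the coding sequence and in the sequence that controls its transcription. The genes described here lie in the pair of mixed blocks on chromosome 1 in which CC-1009 and CC-1691 carry haplotype 2. They were chosen by gene ID, from Cre01.g009300 to Cre01.g019750 for block 1-A and from Cre01.g022750 to Cre01.g042000 for block 1-B. The blocks hold 586 of the 17611 genes in the deposited table, 209 in 1-A and 377 in 1-B. Of these, 164 carry a symbol and 258 a definition.

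CC-1009 and CC-1691 (haplotype 2, both mt-) were set against CC-124, CC-4532 and CC-4533 (mt-) and CC-125 and CC-1690 (mt+), which carry haplotype 1 in both blocks. All 7 are used as wild types, with no mutation or treatment introduced by the study. Each was grown as 4 replicate cultures in acetate medium under continuous light to mid-logarithmic density, and poly-adenylated RNA was sequenced, for 28 libraries in all. Levels are given as FPKM, read counts scaled by transcript length and by a factor for each library. Differences are on the scale of log2(FPKM + 0.1), as haplotype 2 strains minus haplotype 1 strains. The haplotype is carried by whole strains, 2 against 5, and these strains also differ elsewhere in the genome, so that an effect of the block and an effect of the rest of the strain's genome cannot be told apart gene by gene. The reads of all strains were mapped to the genome of CC-4532, which carries haplotype 1 in these blocks. A lower transcript level and a poorer mapping of haplotype 2 reads cannot be told apart in these values.

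Between 16121 and 16594 genes were above 0 FPKM in each library. The files used give no read counts, so sequencing depth is unknown and intervals for counting error cannot be stated. The third culture of CC-4533 stood apart from the other 3 of its strain for several genes below. The counts of genes that followed haplotype and of runs are also given without it, and most other counts only with it. Of the 586 genes, 535 exceeded 1 FPKM on average in some strain and were tested, 190 in 1-A and 345 in 1-B. The 51 that were not tested reached at most 0.998 FPKM as a strain mean, and 1 of them was listed at 0 in every library.

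The first question was how many genes in the blocks had a level that followed haplotype. A gene was counted as following when limma's moderated test gave a Benjamini-Hochberg adjusted p below 0.01 over all genes tested, and when all 8 libraries of CC-1009 and CC-1691 lay above, or all below, the 20 libraries of the other strains. In the blocks, 49 of the 535 tested genes met both conditions (9.16%), against 2.65% of all 14785 genes tested. The direction was uneven, with 16 genes higher in the haplotype 2 strains (background 1.53%) and 33 lower (background 1.12%). Block 1-A held 22 of them among 190 tested genes (11.6%) and block 1-B held 27 among 345 (7.83%). On the rest of chromosome 1, where all 7 strains share haplotype 1, 7 of 456 tested genes separated the same strains (1.54%), 6 of them higher and 1 lower. Of the 49, 6 higher genes passed the filter of 1 FPKM only through the haplotype 2 strains and 6 lower genes only through the haplotype 1 strains, so that these had to differ. Without the filter 51 of 585 genes followed (8.72%), 18 higher and 33 lower, against 1.34% on the rest of chromosome 1 and 2.42% of all genes.

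None of the 51 tested genes in the stretch between 1-A and 1-B separated the strains, nor did any of the 28 genes between 1-B and the next mixed block, 1-C. Block 1-C itself, in which only CC-1009 carries haplotype 2, had 0 of 22. The stretch before 1-A had 2 of 156 and the stretch after 1-C had 5 of 221. By limma's moderated test alone, at an adjusted p below 0.01, 20 of the 51, 19 of the 28 and 13 of the 22 genes passed (background 53.9%). In all of these genes the libraries overlapped. On the other chromosomes and scaffolds 331 of 13691 genes separated the strains (2.42%), with chromosome 9 (4.54%) and chromosome 11 (4.53%) next after chromosome 1 (5.58%) and chromosome 5 the lowest (0.517%). A further 81 tested genes of chromosome 1 cannot be placed by their ID, and 5 of them separated the strains.

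**Figure D1:**
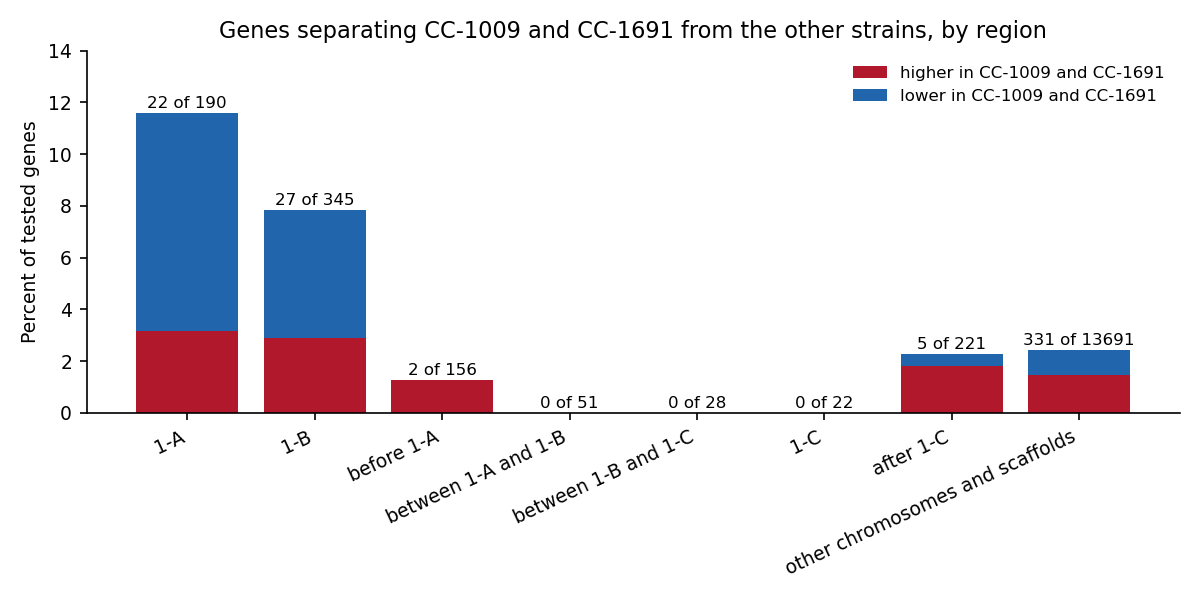
Percent of tested genes, on the vertical axis, that separated all libraries of CC-1009 and CC-1691 from all libraries of the other 5 strains, for the blocks, the other stretches of chromosome 1 and the rest of the genome, with genes higher in CC-1009 and CC-1691 in red and genes lower in blue. The bars of 1-A (22 of 190) and 1-B (27 of 345) stand above all others, and the stretch between them is at 0 of 51.

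The moderated test alone, with overlap allowed, passed 325 of the 535 genes in the blocks (60.7%), 126 higher and 199 lower, against a background of 53.9% of all genes and 237 of 456 on the rest of chromosome 1 (52.0%). In 276 of the 325 the libraries of the haplotypes overlapped. Without the third culture of CC-4533 the moderated test passed 152 genes of the blocks as higher and 226 as lower. The share over all genes without that culture is not given here. Over 2-fold, by limma's treat test at an adjusted p below 0.01, 33 genes in the blocks passed (6.17%, background 3.72%), 18 higher (background 2.48%) and 15 lower (background 1.24%), against 12 of 456 on the rest of chromosome 1 (2.63%). Of the 33, 16 followed haplotype, 8 in each direction. The median difference over the tested genes was -0.10 in the blocks, -0.14 in 1-A and -0.07 in 1-B, against 0.01 on the rest of chromosome 1 and -0.01 over all genes. Below 0 were 57.4% of the genes in the blocks, 49.1% on the rest of chromosome 1 and 51.2% of all.

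These tests treat the 4 cultures of a strain as separate samples, so they compare these strains and not haplotypes in general. When each strain was entered as a single value, 2 against 5, limma passed 1 gene of the 535, Cre01.g027300 (adjusted p = 0.00899). The other 48 no longer passed. In that fit the share that followed haplotype was 0.187% in the blocks, 0% on the rest of chromosome 1 and 0.0541% of all genes. At an unadjusted p below 0.05 that fit passed 92 genes of the blocks (17.2%), against 21 of 456 on the rest of chromosome 1 (4.61%) and 7.20% of all genes. The 92 include 48 of the 49, but the 49 had been chosen for no overlap in the same libraries. Their passing is therefore no separate support, and their median adjusted p in that limma fit was 0.507. Without the third culture of CC-4533, 58 genes followed haplotype (10.8%), with 9 on the rest of chromosome 1 (1.98%) and 3.55% of all genes. Within library set 1 alone, which leaves out CC-125 and CC-4533, 86 of 529 genes followed (16.3%), against 4.67% on the rest of chromosome 1 and 7.43% of all, with fewer strains to be separated from.

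**Figure D2:**
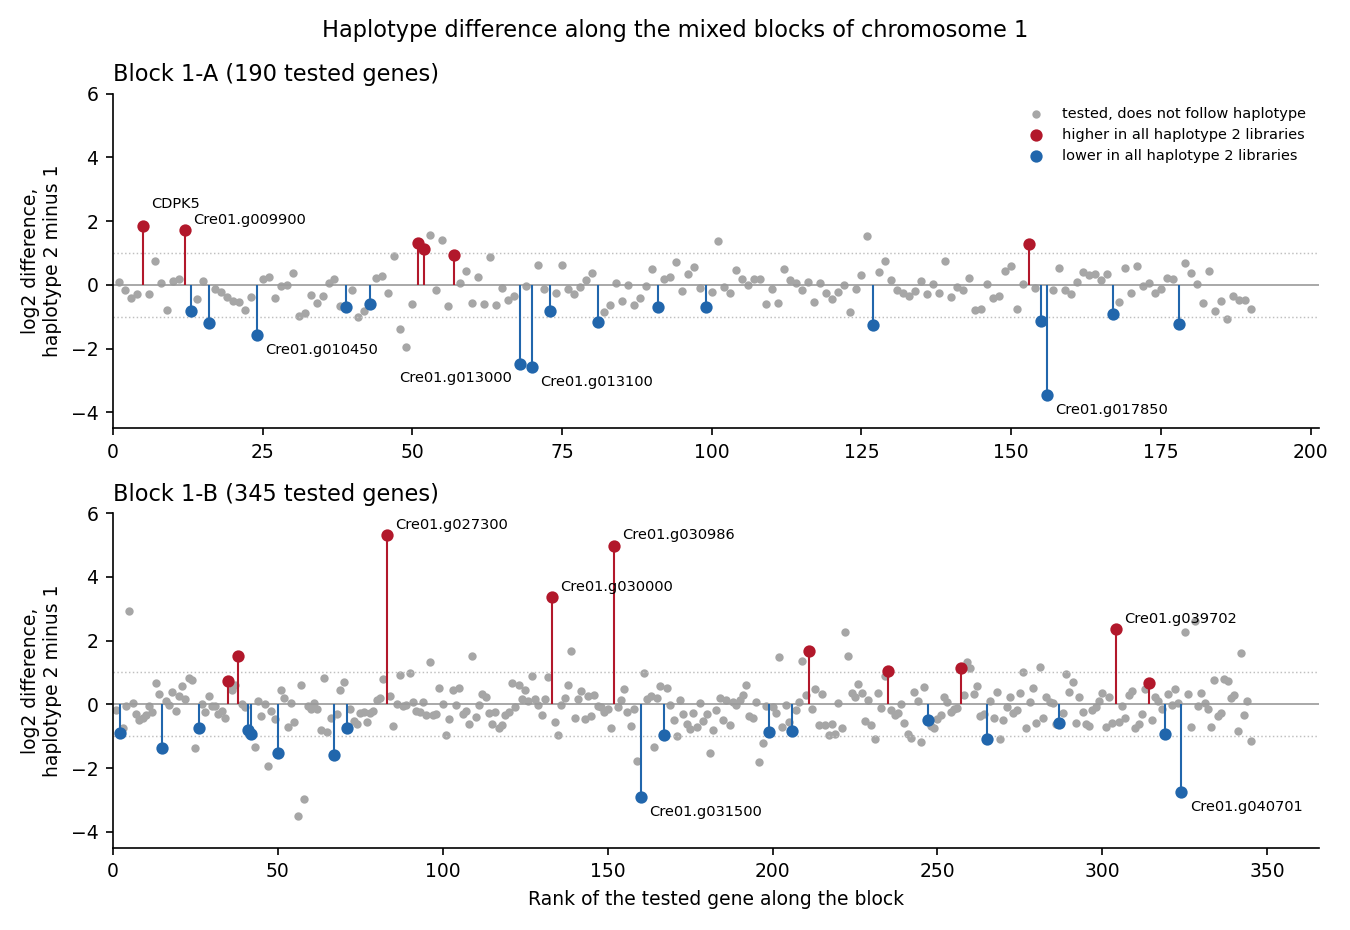
Fitted log2 difference, haplotype 2 strains minus haplotype 1 strains, on the vertical axis for each tested gene in its order along block 1-A (190 genes, upper panel) and block 1-B (345 genes, lower panel). Red and blue stems mark the 16 genes higher and the 33 genes lower in all libraries of CC-1009 and CC-1691, grey points the other tested genes, and dotted lines a 2-fold difference, and the stems are scattered along both blocks with no stretch of more than 2 neighbours in the same direction.

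The genes that rose the most included a few with levels near 0 FPKM in the haplotype 1 strains. Cre01.g027300, which has no definition, had 13.5, 17.7 and 27.2 FPKM as the lowest, median and highest of the 8 haplotype 2 libraries, against 0.14, 0.33 and 1.32 FPKM in the 20 haplotype 1 libraries. Every haplotype 2 library lay above every other, and the fitted difference was 5.30 ± 0.14 (SE). The gene passed the filter only through the haplotype 2 strains. The strain means were 14.3 ± 0.627 FPKM in CC-1009 and 23.8 ± 2.80 FPKM in CC-1691 (SD, n = 4 each), and the highest haplotype 1 strain was CC-1690 at 0.965 ± 0.414 FPKM.

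Cre01.g030986, also without a definition, was listed at 0 in all 20 haplotype 1 libraries. Its levels in the haplotype 2 libraries were 1.96, 2.57 and 6.12 FPKM as the lowest, median and highest, with a mean of 2.37 ± 0.307 FPKM in CC-1009 and 4.20 ± 1.62 FPKM in CC-1691. No fold change is given against libraries at 0. Cre01.g030000 had 1.99, 2.38 and 2.87 FPKM in the haplotype 2 libraries, against 0.01, 0.135 and 0.45 FPKM in the haplotype 1 libraries, a difference of 3.36 ± 0.13 (SE). Differences of genes near 0 FPKM depend on the pseudocount, and for Cre01.g030000 it was 1.53 with 1 FPKM added and 4.20 with 0.01 FPKM. It moved over 1.5 times in 11 of the 34 named genes, all of which kept their direction. All 3 of these genes lie in block 1-B. In 6 of the 16 higher genes every haplotype 1 strain mean was under 1 FPKM.

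Cre01.g039702 was expressed in all strains and rose to a narrow range in the haplotype 2 strains. It had 19.5 ± 0.936 FPKM in CC-1009 and 19.0 ± 1.43 FPKM in CC-1691, against means between 1.93 FPKM in CC-125 and 5.58 FPKM in CC-4532, and the difference was 2.36 ± 0.06 (SE) (limma adjusted p = 4.14e-21). The 2 strains were thus within their SDs of each other, and both were above all 20 haplotype 1 libraries.

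Among the higher genes were 3 protein kinases, enzymes that attach phosphate to other proteins. CDPK5, annotated as a calcium/calmodulin-dependent kinase near the start of block 1-A, had 8.20, 9.35 and 10.7 FPKM as the lowest, median and highest haplotype 2 library, against 1.35, 2.69 and 4.51 FPKM in the haplotype 1 libraries. No libraries overlapped and the difference was 1.83 ± 0.11 (SE) (limma adjusted p = 3.67e-13). A serine/threonine kinase, Cre01.g024550, differed by 0.74, with means of 8.92 ± 0.525 FPKM in CC-1009 and 9.70 ± 0.627 FPKM in CC-1691, and the nearest haplotype 1 strain was CC-1690 at 6.78 ± 0.622 FPKM. The WNK kinase Cre01.g040200 differed by 0.66, the smallest size of any higher gene, with 23.0 ± 0.955 FPKM in CC-1009 and 24.5 ± 0.767 FPKM in CC-1691, against 18.9 ± 0.556 FPKM in CC-4532, its nearest neighbour. Of the 23 tested kinases, phosphatases and cyclases in the blocks, 13 passed the moderated test as higher (background 26.8%) and 4 as lower (background 27.0%), with a list median of 0.31. Of genes with kinase in the definition, 9 of 17 in the blocks were higher and 5 lower, with a median of 0.31, and 71 of 217 outside the blocks were higher and 46 lower, with a median of 0.10, a search made after the values in the blocks had been seen.

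Cre01.g009900, a chloroplast DnaJ-like protein of the family that assists Hsp70 chaperones, was the most abundant of the strongly higher genes. Its mean was 41.8 ± 0.663 FPKM in CC-1009 and 38.6 ± 1.05 FPKM in CC-1691, against 5.30 ± 0.788 FPKM in the lowest haplotype 1 strain, CC-124, and 19.6 ± 3.06 FPKM in the highest, CC-1690. The difference was 1.71 ± 0.12 (SE) (limma adjusted p = 3.33e-12). One library of CC-4533 had 25.8 FPKM, the highest of all haplotype 1 libraries, while the other 3 had 9.04, 9.73 and 9.86 FPKM.

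The remaining named genes that were higher have no definition. Cre01.g034350 had 3.07, 3.35 and 3.88 FPKM in the haplotype 2 libraries, against 0.09, 1.25 and 2.83 FPKM in the haplotype 1 libraries, where the strains themselves spread widely, between 0.175 ± 0.111 FPKM in CC-4533 and 2.33 ± 0.348 FPKM in CC-1690. Haplotype accounted for 36.8% of the variance between its strain means, the lowest share of the 49. Cre01.g024800 (difference 1.52, and 0.72 with 1 FPKM added), Cre01.g017550 (1.27) and Cre01.g011800 (1.30) were all below 1 FPKM in every haplotype 1 library, and Cre01.g036900 (1.15) and Cre01.g011850 (1.12) were expressed in all strains. Over all 16 higher genes the difference ranged between 0.66 and 5.30 with a median of 1.41.

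**Figure D3:**
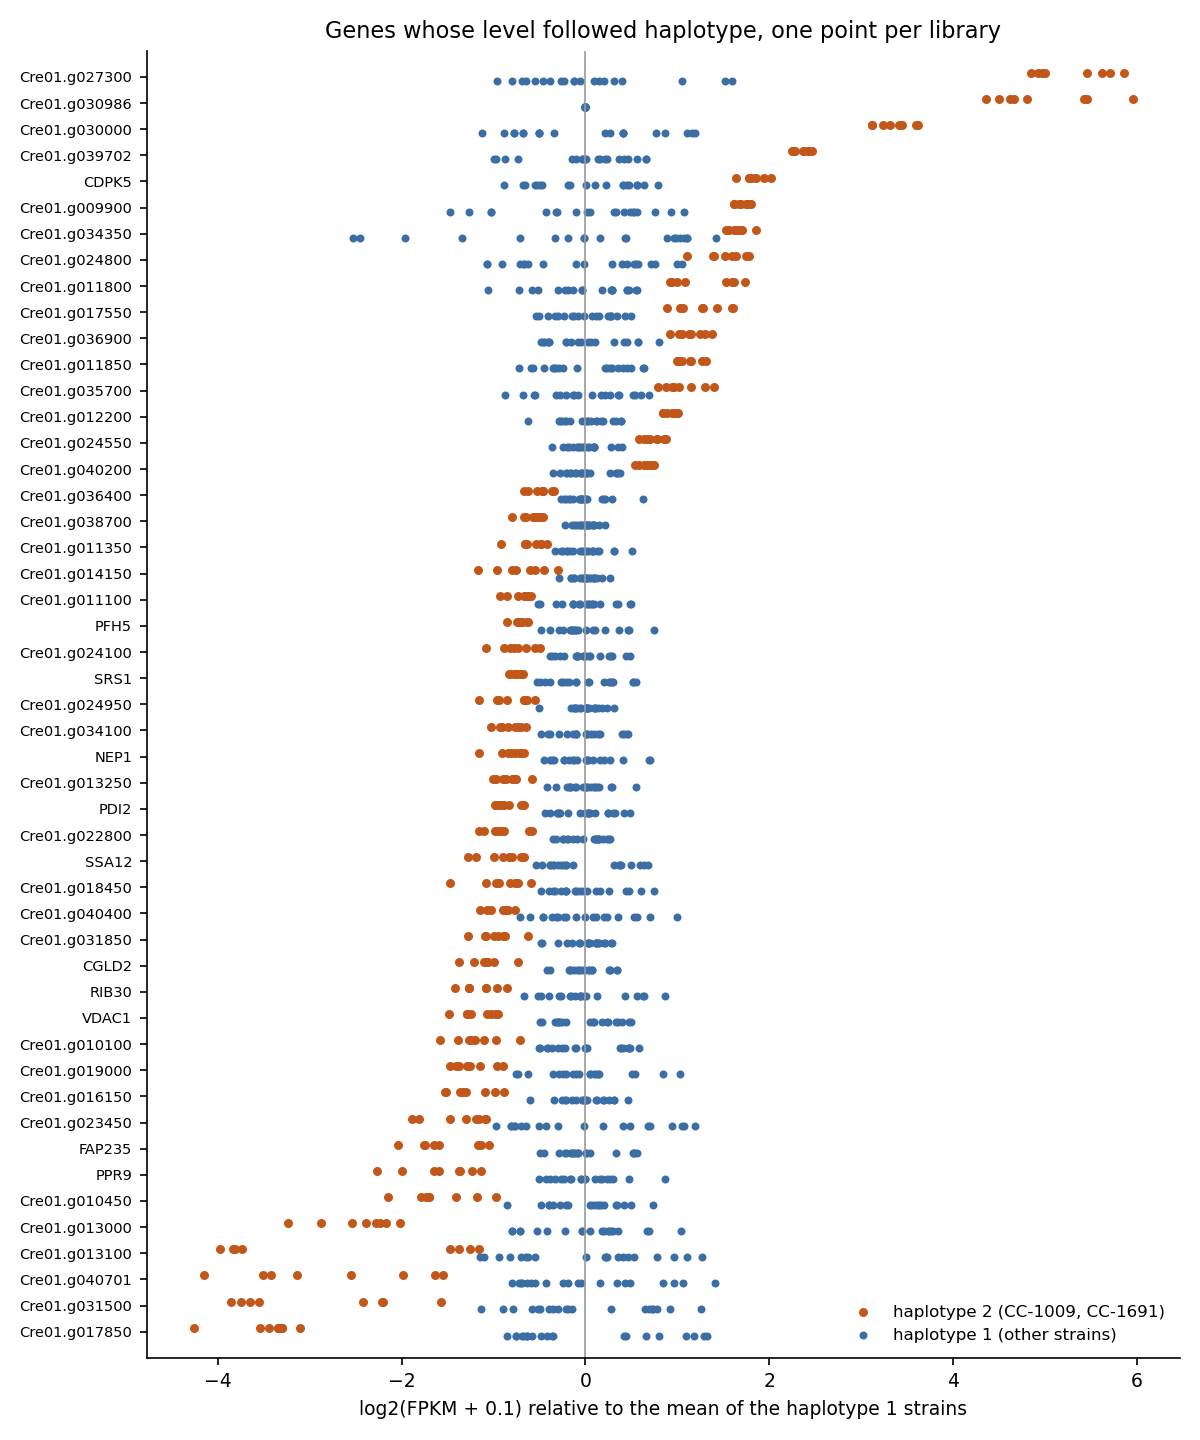
Every library of the 49 genes whose level followed haplotype, plotted as log2(FPKM + 0.1) relative to the mean of the haplotype 1 strains on the horizontal axis, with the 8 haplotype 2 libraries in orange and the 20 haplotype 1 libraries in blue, each gene on its own row. The 16 higher genes fill the upper rows and the 33 lower genes the lower rows, and the narrowest gap between colours is 0.00839 on the log2 scale. Distances of genes listed at or near 0 FPKM depend on the added 0.1.

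Among the 33 lower genes the difference ranged between -0.49 and -3.46 with a median of -0.94, and 17 have a definition, against 4 of the 16 higher genes. The most strongly lower gene was Cre01.g017850, of unknown function, which had 0.07, 0.22 and 0.28 FPKM in the haplotype 2 libraries, against 1.71, 2.40 and 8.07 FPKM in the haplotype 1 libraries (difference -3.46 ± 0.10 (SE), and -1.83 with 1 FPKM added). All 8 haplotype 2 libraries lay far below the other 20. In 6 of the 33, including this gene, both haplotype 2 strain means were under 1 FPKM. Cre01.g013000 is another, at 0.11, 0.295 and 0.39 FPKM in the haplotype 2 libraries, against 1.04, 2.06 and 3.97 FPKM in the haplotype 1 libraries, and Cre01.g031500 had 0.15, 0.395 and 1.12 FPKM in the haplotype 2 libraries, against 1.55, 3.06 and 8.59 FPKM in the haplotype 1 libraries.

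VDAC1, the channel through which metabolites cross the outer mitochondrial membrane, was the most abundant gene that followed haplotype. It had 125, 157 and 182 FPKM as the lowest, median and highest haplotype 2 library, against 249, 367 and 492 FPKM in the haplotype 1 libraries. Strain means were 174 ± 6.72 FPKM in CC-1009 and 139.5 ± 9.98 FPKM in CC-1691, and the nearest haplotype 1 strain was CC-4532 at 268 ± 20.4 FPKM. The difference was -1.17 ± 0.07 (SE) with a limma adjusted p of 8.41e-14, and the libraries did not overlap. The other members of the list of 15 tested channels and transporters that followed were also lower, a MATE efflux protein (Cre01.g014150, -0.70) and a voltage-gated chloride channel (Cre01.g038700, -0.59). Cre01.g014150 had the narrowest gap of the 49, with 3.33 FPKM in its highest haplotype 2 library, against 3.35 FPKM in its lowest haplotype 1 library. In the same list the moderated test passed 6 genes as higher (background 26.8%) and 5 as lower (background 27.0%).

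All 3 ciliary genes that followed haplotype were lower. The cilia of Chlamydomonas are motile organelles built on microtubule doublets. FAP235, a flagellar associated protein, had 4.80 ± 0.553 FPKM in CC-1009 and 7.17 ± 1.13 FPKM in CC-1691, against strain means that ran between 14.7 ± 1.83 FPKM for CC-124 and 24.5 ± 0.327 FPKM for CC-1690 (difference -1.52 ± 0.08 (SE), limma adjusted p = 6.18e-15). RIB30, annotated as a microtubule inner protein that binds the ribbon, had 3.00, 3.58 and 4.49 FPKM in the haplotype 2 libraries, against 5.12, 7.85 and 15.03 FPKM in the haplotype 1 libraries (difference -1.15). SSA12, annotated to ciliary sensing, structure or assembly, differed by -0.92. Of the 27 tested ciliary and basal body genes, 3 were higher (background 26.8%) and 7 lower (background 27.0%) by the moderated test, shares at or below those of all genes, and their median difference was -0.03. The highest difference in the list, 1.32 for the basal body protein POB12, passed the moderated test with overlapping libraries. By a search of the definitions for flagella or cilia, 0 of 20 tested genes in the blocks were higher by that test and 6 lower. Their median was -0.21. Outside the blocks 75 of 418 were higher and 64 lower, with a median of 0.003. This search was made after the values in the blocks had been seen.

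Of the secreted and cell wall proteins, 2 followed haplotype and both were lower. Cre01.g013100, a predicted extracellular protein, had 0.965 ± 0.0705 FPKM in CC-1009 and 6.05 ± 0.585 FPKM in CC-1691, against 8.72 ± 1.55 FPKM in CC-4532 and 26.5 ± 13.4 FPKM in CC-4533, the lowest and the highest haplotype 1 strain. Its libraries were separated by 0.0126 on the log2 scale, between 6.72 FPKM in CC-1691 and 6.78 FPKM in the third culture of CC-4533. PFH5, a prolyl 4-hydroxylase of the kind that modifies proline in cell wall glycoproteins, differed by -0.71, at 7.32 ± 0.477 FPKM in CC-1009 and 7.43 ± 0.255 FPKM in CC-1691, against 9.66 ± 0.935 FPKM in the nearest strain, CC-4533. Of the 7 tested genes in this list 2 passed the moderated test as higher (background 26.8%) and 5 as lower (background 27.0%). By the 2-fold test 2 were higher (background 2.48%) and 2 lower (background 1.24%). The libraries of the 2 higher genes overlapped.

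Other lower genes act in protein folding and in RNA processing. PDI2, a protein disulfide isomerase that forms disulfide bonds in proteins, had 54.1, 57.3 and 67.0 FPKM in the haplotype 2 libraries, against 78.9, 109 and 149 FPKM in the haplotype 1 libraries (difference -0.86 ± 0.06 (SE), limma adjusted p = 8.28e-12). PPR9, a pentatricopeptide repeat protein of the family that binds organelle RNA, had 0.44, 0.83 and 1.08 FPKM in the haplotype 2 libraries, against 1.74, 2.46 and 4.65 FPKM in the haplotype 1 libraries (difference -1.58). The libraries of neither gene overlapped. PPR9, and Cre01.g023450 below, passed the filter of 1 FPKM only through the haplotype 1 strains, so that these had to differ. Of the 21 tested genes of protein folding and breakdown, 2 passed the moderated test as higher (background 26.8%) and 12 as lower (background 27.0%). The genes of this list that followed haplotype went both ways, with the DnaJ-like gene Cre01.g009900 higher and PDI2 lower. Such genes outside the blocks were not counted. Among lower genes without a list, the N-acetyltransferase Cre01.g010100 differed by -1.19, and Cre01.g010450 (-1.58), Cre01.g040701 (-2.74), Cre01.g023450 (-1.38), Cre01.g016150 (-1.25) and Cre01.g019000 (-1.23) have no definition. The rule for named genes left out 15 of the 49, of which 2 were higher, Cre01.g035700 (1.06) and Cre01.g012200 (0.93), and 13 lower, with differences between -0.49 and -1.08. Their lower genes with an annotation were CGLD2 (-1.08), of the thioesterase family, an annotated 1-aminocyclopropane-1-carboxylate deaminase (Cre01.g031850, -0.97), NEP1 (-0.82), the pre-mRNA splicing factor SRS1 (-0.75), a terpenoid cyclase (Cre01.g011100, -0.71) and a short-chain dehydrogenase/reductase (Cre01.g036400, -0.49). SRS1 was abundant, at 33.7, 35.5 and 37.4 FPKM as the lowest, median and highest haplotype 2 library, against 41.4, 58.4 and 87.6 FPKM in the haplotype 1 libraries, which did not overlap. Reads that fit several copies of a gene were placed at random, and how far this touches families with near-identical copies was not tested.

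**Figure D4:**
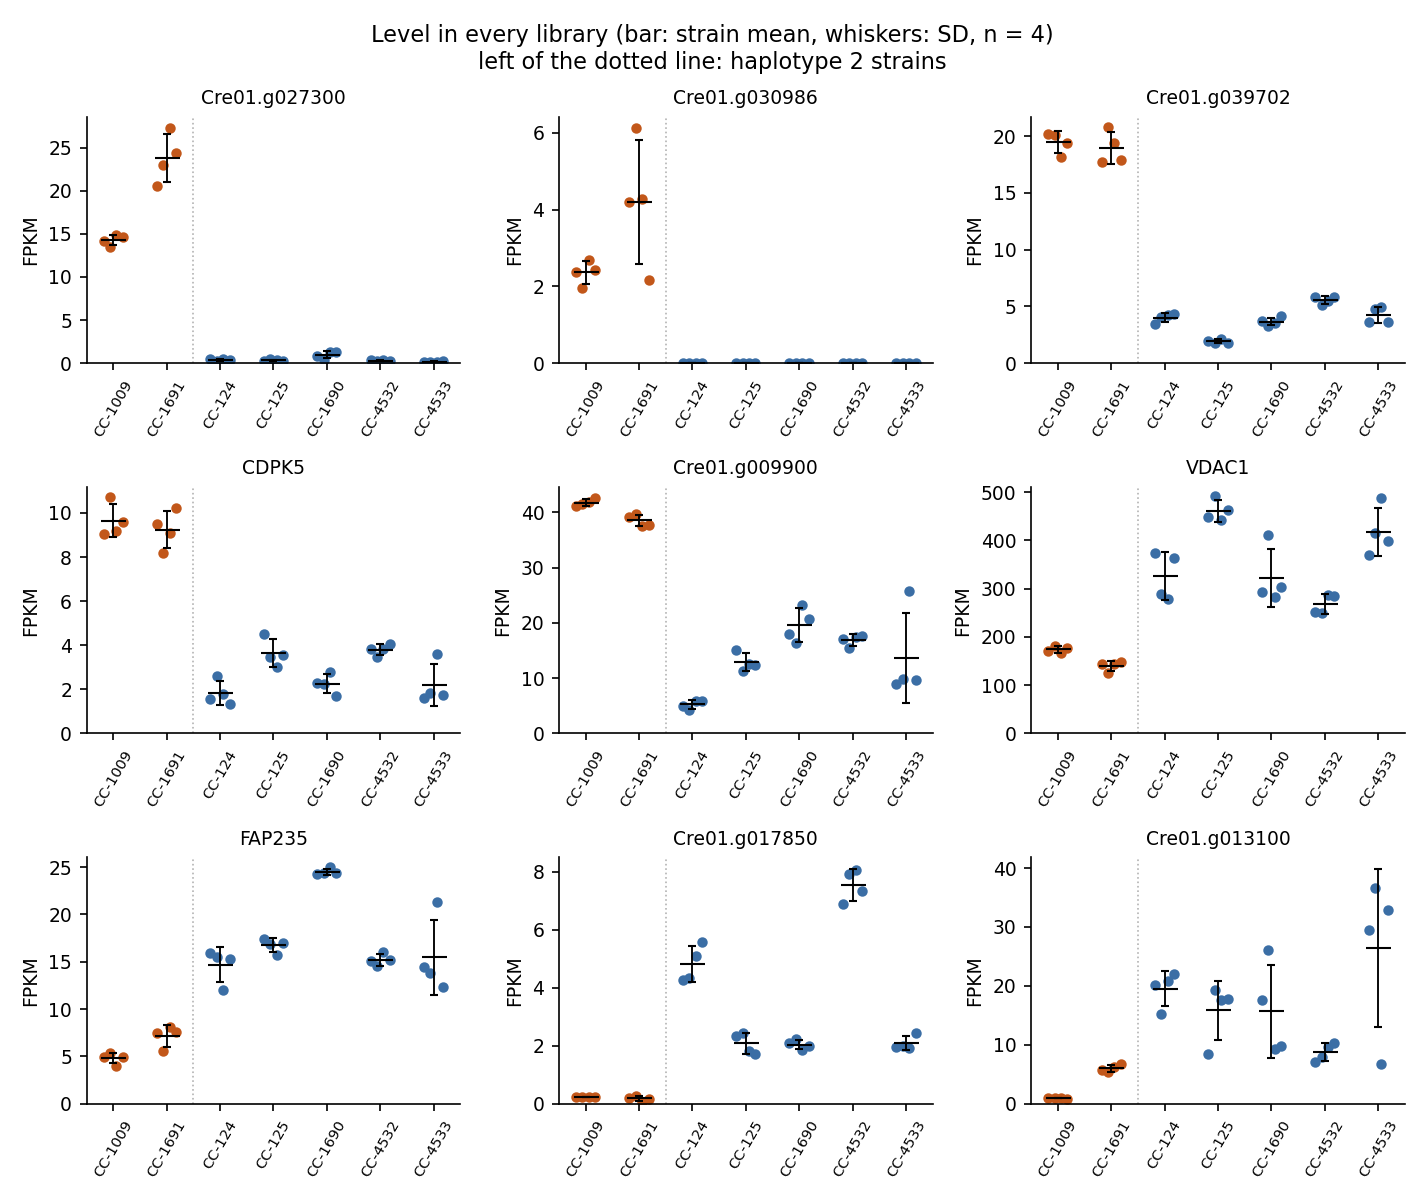
FPKM in each of the 4 libraries of a strain (points), with the strain mean (bar) and SD (whiskers), for 5 genes higher and 4 genes lower in the haplotype 2 strains, each panel on its own linear axis starting at 0. CC-1009 and CC-1691, in orange to the left of the dotted line, lie above all blue points in Cre01.g027300, Cre01.g030986, Cre01.g039702, CDPK5 and Cre01.g009900 and below all of them in VDAC1, FAP235, Cre01.g017850 and Cre01.g013100, where the lowest library of CC-4533 comes close.

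The lists of ribosomes and translation, DNA replication and repair, photosynthesis, and carbon and amino acid metabolism held no gene that followed haplotype, and lists of 11 to 14 tested genes are too small to set 0 apart from the share in the blocks (9.16%) or over all genes (2.65%). Of the 12 tested genes of ribosomes and translation, 10 passed the moderated test as lower (background 27.0%), with a median of -0.56 and overlapping libraries. The cytosolic ribosomal protein genes RPL26 (-0.75), RPL6 (-0.68), RPS2 (-0.67) and RPL11 (-0.55) were among them. Of genes annotated as ribosomal proteins, 6 of 6 in the blocks were lower, with a median of -0.62, and 113 of 163 outside the blocks, with a median of -0.49. In DNA replication and repair 8 of 11 genes in the blocks were lower by the moderated test (background 27.0%), among them the polymerase subunit POLA2 (-0.76), with a median of -0.58. By a search of the definitions for replication and repair, 3 of 5 genes in the blocks were lower, with a median of -0.58, and 26 of 43 outside the blocks, with a median of -0.51. Photosynthesis, pigments and plastid lipids had 2 higher (background 26.8%) and 4 lower (background 27.0%) of 11, with a median of 0.06, and carbon and amino acid metabolism 4 higher and 6 lower of 14, against the same background, with a median of -0.20. These lists were drawn from the annotated names of the genes, and the searches outside the blocks were made after the values in the blocks had been seen.

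A further 17 genes, 10 higher and 7 lower, passed the 2-fold test with overlapping libraries, and those named here were chosen after their values were seen. TAL1, the transaldolase of the pentose phosphate pathway, had 206 ± 6.47 FPKM in CC-1009 and 111 ± 15.9 FPKM in CC-1691, against 123 ± 2.28 FPKM in CC-4532, which lay among the haplotype 2 libraries, and means of 458 to 756 FPKM in the other 4 strains. Cre01.g025650 was high in CC-124 (27.3 ± 4.86 FPKM) and CC-4533 (38.8 ± 3.35 FPKM) and below 1 FPKM as a mean in every other strain of either haplotype. Cre01.g028650 was low in CC-4532 alone, at 0.0975 ± 0.031 FPKM, against at least 8.79 FPKM as a mean in the other strains.

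Among the 49 genes CC-1009 differed from CC-1691 in 4 (adjusted p below 0.01, limma). Over all tested genes of the blocks the 2 strains differed in 55 (10.3%), against a background of 13.1%. The haplotype 1 strain nearest to the haplotype 2 libraries was CC-4532 for 24 of the 49 genes (49.0%), CC-1690 for 10, CC-125 for 6, CC-4533 for 5 and CC-124 for 4. Among the 343 genes outside the blocks that separate the same strains CC-4532 was nearest for 175 (51.0%).

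Genes that set a single strain apart were also found in the blocks. By the same double condition, 70 genes separated CC-1690 from the other 6 strains (13.1%, background 14.2%), 37 separated CC-1009 (6.92%, background 4.54%), 32 CC-125 (5.98%, background 8.81%), 31 CC-4532 (5.79%, background 5.72%), 26 CC-124 (4.86%, background 4.11%), 22 CC-4533 (4.11%, background 4.44%) and 14 CC-1691 (2.62%, background 2.90%). CC-1690 had the most such genes in the blocks, but also the largest share over all genes (14.2%), so the ranking is not particular to the blocks.

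Along the chromosome the 49 genes were scattered. The median step from one to the next was 8 tested genes and the largest was 50. Of windows of 20 adjacent tested genes none held more than 4, and the windows with 4 were the first and the third of block 1-A. Neighbours that followed in the same direction formed 3 runs, each of 2 genes with no untested gene between them in this order. They were Cre01.g011800 (1.30) with Cre01.g011850 (1.12), both higher in 1-A, RIB30 (-1.15) with Cre01.g017850 (-3.46), both lower in 1-A, and Cre01.g024950 (-0.80) with SSA12 (-0.92), both lower in 1-B. One further pair of neighbours moved in opposite directions, the DnaJ-like gene Cre01.g009900 (1.71) and NEP1 (-0.82). The rest of chromosome 1 had 0 neighbouring pairs in the same direction among its 7 genes. Without the third culture of CC-4533 there were 5 runs.

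Genes past the moderated test, with overlap of libraries allowed, formed longer stretches. At the end of block 1-A 7 adjacent tested genes, from the SUMO-conjugating enzyme gene SCE3 (Cre01.g019450) to Cre01.g019750, were all lower by the moderated test, with differences between -0.35 and -1.07, and none followed haplotype. The longest such stretch was 5 genes in 1-B, 4 genes before 1-A, 3 between the blocks and 4 after 1-C. These regions hold unequal numbers of tested genes, and 27.0% of all genes were lower by the moderated test. Stretches on other chromosomes were not counted.

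At the edges of the blocks, which are set by gene ID, 5 of the 8 genes on either side passed the moderated test (background 53.9%). At the start of 1-A the first gene inside, Cre01.g009300, had a difference of 0.08 (limma adjusted p = 0.141) and the gene outside, TOP2, -0.59 (0.00142). At its end the values were -0.76 for Cre01.g019750 inside (3.83e-10) and 0.06 for FTSH3 outside (0.307). The start of 1-B had -0.19 for FAP159 inside (0.125) and 1.70 for Cre01.g022700 outside (2.76e-11), and its end -1.15 for Cre01.g042000 inside (9.76e-10) and -0.28 for MSRB3 outside (0.00583), all as adjusted p by limma. None of these 8 genes followed haplotype.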

How the data were processed

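RNA abundance was measured in 28 libraries, 4 replicate cultures of each of 7 strains, with strain and replicate taken from the sample labels and haplotype and mating type from the study. The authors used STAR to map 50 nt single-end reads to version 6.1 of the genome of CC-4532, placing reads that fit several locations at random, counted them by strand with featureCounts, and deposited FPKM values made with DESeq2, rounded to 2 decimals. Tool versions are not given in the sources used here.

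The deposited FPKM values were tested as log2(FPKM + 0.1) with limma 3.58.1 (R 4.3.3, variance trend, Benjamini-Hochberg adjustment over the 14785 genes that exceeded 1 FPKM on average in some strain), with a mean for each of the 7 strains. The contrast was the mean of CC-1009 and CC-1691 minus the mean of the other 5. A moderated test against no change and a treat test against 2-fold were used at an adjusted p of 0.01. A gene followed haplotype when it passed the moderated test and the libraries of the haplotypes did not overlap. Tables were made in Python 3.11.15 and the fit was tested on simulated data. Order along the chromosome was taken from gene IDs, and all 586 genes matched RefSeq on chromosome 1 in the same order. Genes with numbers of 800000 and above were left out of the blocks.

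Named are, among genes that followed haplotype, the 12 with the largest increase, the 12 with the largest decrease, those in a gene list, those in a run, and the genes at block edges. The members and lists were chosen with earlier results of these data known. Alternatives were pseudocounts of 1 and 0.01 FPKM, no filter or a filter at 5 FPKM, rescaling, quantile normalization, a replicate block, library set 1, mt- strains, strain means, an adjusted p of 0.05 and each library left out. The rescaling was by the median ratio to the arithmetic mean of the libraries. The median ratio to their geometric mean, which was not used for rescaling, was between 1.0051 and 1.0059 in each.

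Inoculation batches (1 each for CC-125 and CC-4533, 2 for each other strain) could not be modeled because the sources do not assign cultures to them. Library set 2 of the labels consists of CC-125 and CC-4533 and holds no haplotype 2 strain. Sequencing depth is unknown.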

Additional observations from a re-analysis of the deposited data

Results flagged for a closer look

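For the 34 named genes, 238 groups of 4 libraries were screened for a library far from the other 3 of its strain (by Dixon's ratio), and 18 stood out, where chance gives about 1 in 20 groups. None of the 18 was a library of CC-1009 or CC-1691. The third culture of CC-4533 accounted for 5 of them, with 3.60 FPKM for CDPK5, 25.8 FPKM for Cre01.g009900, 5.56 FPKM for Cre01.g019000 and 6.96 FPKM for Cre01.g036900, all above the rest of the strain, and 1.26 FPKM for Cre01.g023450, below it. Another culture of CC-4533 had 2.44 FPKM for Cre01.g017850.

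In CC-4532 single libraries stood apart at 29.8 FPKM for Cre01.g010450, 12.8 FPKM for PFH5, 4.53 FPKM for Cre01.g019000 and 5.29 FPKM for SSA12. In CC-124 they were 6.69 FPKM for RIB30, 11.98 FPKM for FAP235 and 0.22 FPKM for Cre01.g030000. In CC-125 they were 8.51 FPKM for Cre01.g013100, 4.32 FPKM for Cre01.g031500 and 0.04 FPKM for Cre01.g030000, and in CC-1690 411 FPKM for VDAC1 and 24.99 FPKM for FAP235.

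The haplotype 2 strains differed from each other (limma, adjusted p below 0.01) in 4 of the named genes. CC-1009 minus CC-1691 was -2.53 on the log2 scale for Cre01.g013100 (adjusted p = 8.07e-06) and -0.56 for FAP235 (adjusted p = 0.00261). It was 1.60 for Cre01.g031500 (adjusted p = 3.56e-07) and 1.63 for Cre01.g040701 (adjusted p = 3.40e-06). In each of the 4 genes both strains stayed below every haplotype 1 library.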

How the results depend on the processing

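The largest dependence was on the unit of replication. With strain means as single values limma passed 1 gene by the moderated test and 0 by the 2-fold test, 1 followed haplotype (1 higher, 0 lower) and there were 0 runs, and at an unadjusted p below 0.05 it passed 92 of 535 genes. Of the 34 named genes, 33 no longer passed the moderated test under this setting. In the other settings every named gene that was tested passed it in the same direction, and 11 of the 34 were not tested with the filter at 5 FPKM. Library set 1 alone gave 86 genes that followed, 32 higher and 54 lower, in 8 runs. A filter at 5 FPKM left 349 tested genes, of which 20 passed the 2-fold test, and the median became -0.17. With that filter 33 genes followed (9.46%), 8 of them higher, against 2.06% on the rest of chromosome 1 and 2.98% of all genes. A pseudocount of 1 FPKM left 16 genes past 2-fold. With each library left out in turn 49 to 58 genes followed haplotype, always including the 49, with 16 to 20 higher, 33 to 38 lower and 3 to 5 runs, the 5 without the third culture of CC-4533. With the mt- strains alone 60 genes followed (11.3%), against 2.64% on the rest of chromosome 1 and 4.67% of all genes. Quantile normalization gave 48 (8.97%), of which 46 were among the 49, against 1.10% on the rest of chromosome 1 and 2.62% of all genes.

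Same-numbered cultures of different strains did not deviate together (mean correlation -0.0024 over 84 pairs, 12 above 0.1), so the numbers were not taken as pairing. The fit with the replicate block gave 49 genes that followed, with 128 higher and 196 lower by the moderated test. Values near 0 FPKM have unknown precision, since read counts were not analysed here.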
